A study of Mus musculus with 12 samples.

Results

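The genes described here are 10 transcription factors of the granulosa lineage: Foxl2, Nr5a1, Nr5a2, Gata4, Gata6, Wt1, Runx1, Runx2, Foxo1 and Foxo3. They were chosen by name, as known regulators of granulosa cells, and all 10 were found among the 23997 rows of the expression table. The table covers cumulus cells, the granulosa cells that surround the oocyte, from C57BL/6J female mice in 4 groups of 3 libraries: wild type (WT) and ClpP-/- (KO) animals, each at 3 and at 6 months of age. ClpP is a protease of the mitochondrial matrix, and the study asked how its loss changes cumulus cells with age. All mice, controls included, were primed with PMSG (pregnant mare serum gonadotropin, 5 IU), a hormone that drives follicle growth, and the time to collection is given as 44 h in one place and as 48 h in another. Each library was made from 100 cells of 1 mouse by Smart-Seq2 and Nextera XT. The deletion was present in every cell of the animal as far as the genotype label says, so a difference in cumulus cells cannot be assigned to a loss of ClpP in those cells. In bulk libraries such as these, fewer cells of a type and less RNA per cell cannot be told apart.

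Granulosa identity rests on a small set of DNA-binding proteins. FOXL2, a forkhead factor, keeps the ovarian fate and holds back the testicular programme, and RUNX1 acts beside it in the fetal ovary. The nuclear receptors NR5A1 (SF-1) and NR5A2 (LRH-1) bind the same core sequence and drive steroidogenic and ovulatory genes, often with the zinc-finger factors GATA4 and GATA6. WT1 marks the early gonad and granulosa cells of immature follicles. FOXO1 is abundant in granulosa cells of growing follicles, where gonadotropin signalling through AKT moves it out of the nucleus, FOXO3 is best known for holding primordial oocytes at rest, and RUNX2 is induced in granulosa cells around ovulation.

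The core sequences these families bind were searched in promoter windows of the members and of 16 known FOXL2, NR5A and GATA targets, from 250 bases before to 50 bases after each RefSeq start on GRCm38.p6. The searched letters were AGGTCA for the NR5A receptors, AGATAA for GATA factors, TAAACA for forkhead factors and ACCACA for RUNX factors, on both strands, and matches of different motifs were counted separately even where they touch. The NR5A letters are a core that many nuclear receptors share. The windows searched were those of Foxl2, Foxo1, Foxo3, Nr5a2, Runx1 and Runx2 (8 windows) and of 11 targets (14 windows). No window of Nr5a1, Gata4, Gata6 or Wt1 was searched, so nothing is said here about their promoters. The NR5A letters stood in 6 of the 14 target windows and in 2 of the 8 member windows, those of Nr5a2 and Runx2, against 16.3% of all 32817 windows in the table. The following 30-base stretches show 5 of these 8, 5′ to 3′ in the sense of the gene with the motif in capitals, in the genes for the inhibin alpha subunit, the anti-Müllerian hormone receptor, the luteinizing hormone receptor, the repressor DAX-1 and the receptor NR5A2 itself.
Inha, chr1:75507528-75507557, plus strand: ttggggattggcAGGTCAactttgaagagt
Amhr2, chr15:102445125-102445154, plus strand: caccttcttccaAGGTCAgtaggggtagag
Lhcgr, chr17:88792119-88792148, minus strand: ggccacagtcccAGGTCAaggagaacaggg
Nr0b1, chrX:86191637-86191666, plus strand: tttgagctttcgAGGTCAtggccacacaca
Nr5a2, chr1:136960495-136960524, minus strand: atggtttacagcAGGTCAtacatgctggaa
The RUNX letters stood in 2 of the 8 member windows, those of Runx1 and Runx2, and in 4 of the 14 target windows, against 16.8% of all windows. The Runx1 window held them 2 times and the Runx2 window 3 times. The stretches just after the starts of these genes are shown because both paralogs carry the motif there, with 1 match in each in capitals.
Runx1, chr16:92826029-92826058, minus strand: acctcataaacaACCACAgaaccacaagtt
Runx2, chr17:44814587-44814616, minus strand: gcctcacaaacaACCACAgaaccacaagtg
The match in capitals began 29 bases after the Runx1 start and 24 bases after the Runx2 start. A further RUNX match in lower case began 37 and 32 bases after them, and the forkhead letters, also in lower case, stand just before the capitals in Runx1. The GATA letters stood in 1 of the 8 member windows, that of Nr5a2 (2 matches), and in 1 of the 14 target windows, against 11.2% of all windows. The forkhead letters stood in 1 member window, that of Runx1, and in 1 target window, against 13.4% of all windows. The windows of Foxl2, Foxo1 and Foxo3 held none of the 4 motifs. A match describes the letters and does not show binding.

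Granulosa markers were detected in every library. Inha ran from 2419 to 5791 FPKM (fragments per kilobase of transcript, scaled to sequencing depth) and Fshr, the follicle-stimulating hormone receptor, from 30.7 to 211. None of the 13 granulosa and cumulus markers outside the member list was at 0 in any library. Several were far lower in KO library 3 of the younger and the older mice than in the other 10: Fst, the activin-binding follistatin, read 31.5 and 48.3 FPKM there against 186 to 649, and Hsd17b1, an estradiol-forming enzyme, 170 and 196 against 623 to 1256. Nap1l5 and Npr2 were also lowest there (28.2 and 85.8 against 104 to 634 FPKM, and 7.70 and 10.6 against 21.3 to 47.0). Clpp read 88.2 to 146 FPKM in the 6 WT libraries and 0.769 to 6.63 in the 6 KO libraries. Other cell types were also present: the summed FPKM of 12 theca and stromal markers reached 1278 and 1619 in these KO libraries, while the remaining libraries held 1.91 to 158. That of 12 blood and leukocyte markers was 823, 774, 1573 and 1046 in library 3 of 3-month WT, 3-month KO, 6-month WT and 6-month KO, and 6.19 to 80.0 in libraries 1 and 2. A score averaging these lists and that of endothelial markers (log2 units around the mean of the 12 libraries) was 1.65, 1.19 and 2.02 in library 3 of 3-month KO, 6-month WT and 6-month KO, and -1.17 to 0.44 in the other 9, of which 3-month WT library 3 was the highest. Their summed FPKM of 5 luteal markers was also the highest (3102, 3137 and 6379, against 128 to 2288 in the other 9). These 3 are called the marker-high libraries here, and member differences that turned or moved by over 1.5 times without them are given both ways. Small RNA entries made up 25.7%, 32.0% and 37.6% of the FPKM sum in 3-month WT library 1, 3-month KO library 3 and 6-month KO library 3, and at most 6.86% elsewhere. Rescaling by size factors turned the sign of no member difference.

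Levels of the 10 genes, which FPKM makes comparable per length, ran in order of their mean over the 12 libraries from Foxo1 at 59.1 FPKM to Foxo3 at 1.05. Between them lay Gata4 (17.5), Nr5a1 (17.3), Nr5a2 (11.1), Gata6 (10.6), Foxl2 (6.44), Wt1 (5.15), Runx1 (5.11) and Runx2 (1.39). Several neighbours in this order could not be ranked. Gata4 was above Nr5a1 in 7 of 12 libraries, Nr5a2 above Gata6 in 5, and Wt1 above Runx1 in only 3, since its mean rested on a few libraries. Runx2 was above Foxo3 in 4 of 12, and its median was the lower (0.429 against 0.898 FPKM). The clear steps were Foxo1 over Gata4, Nr5a1 over Nr5a2 and Gata6 over Foxl2, each in 10 of 12 libraries, and Runx1 over Runx2, in 9. Foxo1, Gata4, Nr5a1, Nr5a2, Gata6 and Runx1 reached 1 FPKM in all 12 libraries, Foxl2 in 10, Wt1 in 8, Foxo3 in 5 and Runx2 in 3. All 10 passed the filter for testing (at least 1 FPKM in at least 3 libraries), Runx2 by exactly the 3 marker-high libraries.

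**Figure D1:**
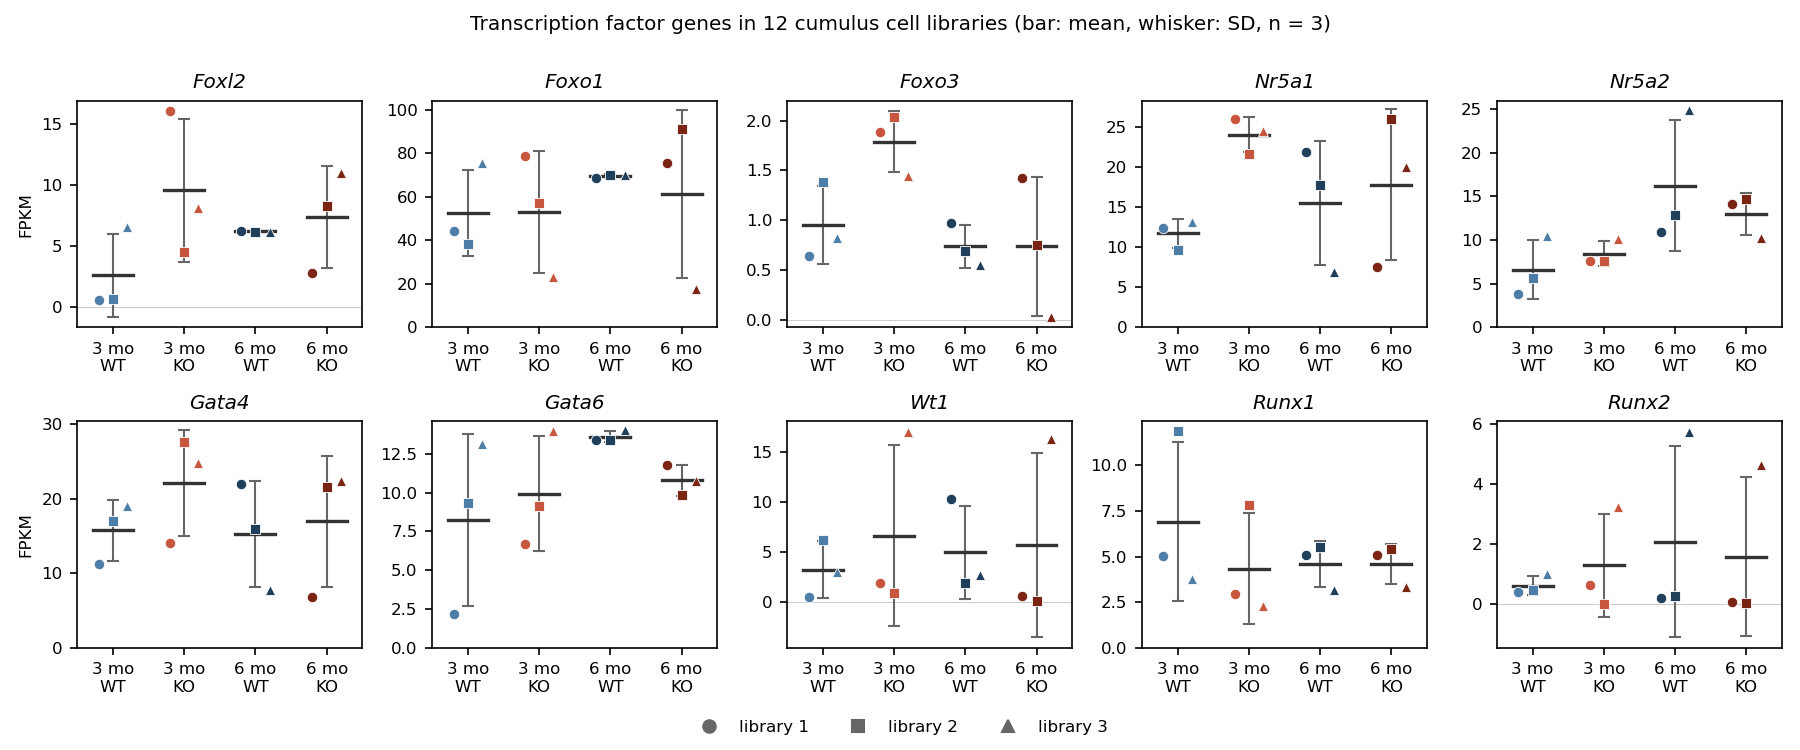
FPKM of each of the 10 transcription factor genes (vertical axes, linear, one scale per gene) in the 4 groups of mice, with a symbol per library, a bar for the mean and a whisker for the SD (n = 3). Foxo1 was the most abundant, Foxl2 was lowest in 3-month WT libraries 1 and 2 (0.582 and 0.695 FPKM), and Wt1 and Runx2 were high in single libraries.

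Foxl2 (chromosome 9, 98955288 to 98958543, plus strand, a single exon on GRCm38) read 0.582, 0.695 and 6.55 FPKM in the 3-month WT libraries 1, 2 and 3, and 16.1, 4.55 and 8.11 in the 3-month KO libraries. The 6-month libraries held 6.28, 6.17 and 6.20 FPKM for WT and 2.82, 8.31 and 11.0 for KO. The 2 lowest values of the 12 were thus both in the 3-month WT group, whose library 3 lay within the KO range, so that these groups overlapped. The mean was 2.61 ± 3.41 FPKM (SD, n = 3) in 3-month WT and 9.57 ± 5.89 in 3-month KO. The difference was 1.80 on the log2(FPKM + 1) scale (SE 0.63, 95% confidence interval 0.43 to 3.18), with an adjusted p from limma of 0.664 and an unadjusted p of 0.0145. At 6 months the KO minus WT difference was 0.06 (interval -1.32 to 1.44), and -0.28 without the 3 marker-high libraries. The difference between the ages in the KO effect was -1.74 (SE 0.89, adjusted p from limma 1.0), so a change of the KO effect with age was not shown. Leaving out 3-month WT library 3 moved the 3-month difference to 2.54 and its adjusted p from limma to 0.127, which was the smallest for any member in any comparison and setting.

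Other genes also differed between the 3-month WT libraries with little Foxl2 and the rest. Tnfaip6, a hyaluronan-matrix gene induced as the cumulus expands and looked up after its values were seen, read 45.9 and 44.9 FPKM in libraries 1 and 2, 8.36 in library 3 and at most 7.24 in the other 9. Has2, a hyaluronan synthase of the same process that was looked up with it, read 23.1, 2.06 and 2.08 FPKM in libraries 1, 2 and 3 and at most 1.23 elsewhere, so that library 2 lay with library 3. Sgk1, a kinase induced by follicle-stimulating hormone, read 402 and 362 FPKM in them and 56.0 in library 3. Library 3 was in turn the one with the blood and leukocyte markers, at 823 FPKM against 50.3 and 18.1 in libraries 1 and 2. The part of these in the Foxl2 difference was not tested. Foxl2os, a processed transcript that starts head to head with Foxl2 on the minus strand (98949781 to 98955299) and shares 12 bases of exon with it, read 5.38, 5.87 and 24.6 FPKM in 3-month WT and 17.8, 11.7 and 17.3 in 3-month KO. In the older mice the values were 16.5, 12.1 and 21.5 FPKM for WT and 6.52, 19.9 and 32.8 for KO. Its 3 lowest libraries were the 3 lowest for Foxl2. Nothing in the labels says whether reads were counted by strand, so reads in the shared bases cannot be assigned to one of the pair.

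**Figure D2:**
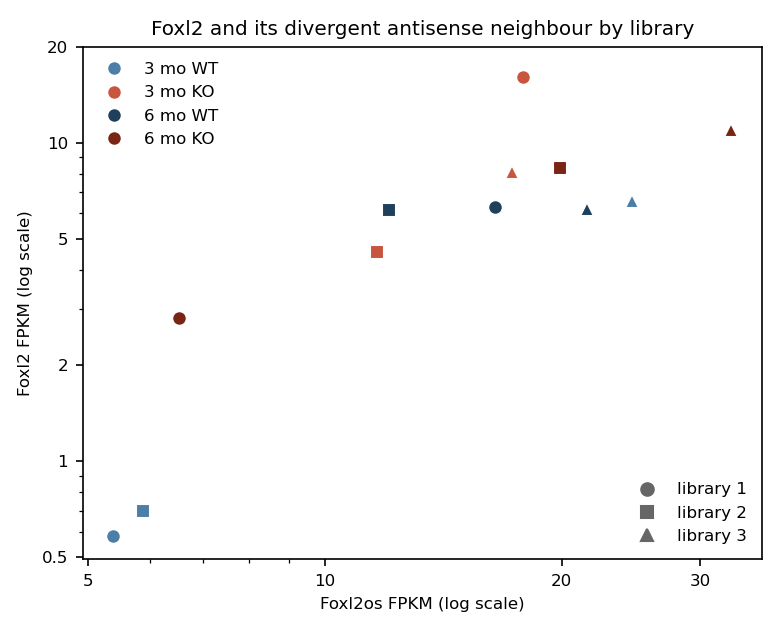
FPKM of Foxl2 (vertical axis, log scale) against that of Foxl2os (horizontal axis, log scale) with a point per library, coloured by group and shaped by library number. 3-month WT libraries 1 and 2 and 6-month KO library 1 (0.582, 0.695 and 2.82 FPKM of Foxl2) lie lowest on both axes.

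Nr5a1 (chromosome 2, 38692656 to 38714542, minus strand), which encodes the master regulator of steroidogenic genes, read 12.4, 9.70 and 13.1 FPKM in 3-month WT and 25.9, 21.6 and 24.5 in 3-month KO. It was higher in each 3-month KO library than in each 3-month WT library. At 6 months the groups overlapped, with 21.9, 17.7 and 6.87 FPKM for WT against 7.48, 26.0 and 19.9 for KO. The 3-month means were 11.7 ± 1.80 and 24.0 ± 2.19 FPKM (SD, n = 3), a difference of 0.98 (log2, SE 0.46, interval -0.03 to 1.99) that did not pass the test, with an adjusted p from limma of 0.747. Without the 3 marker-high libraries it was 0.96. At 6 months the difference was 0.17 (interval -0.84 to 1.18), and -0.45 without those libraries.

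Nr5a2 (chromosome 1, 136842571 to 136960448, minus strand), whose receptor is needed for ovulation, read 3.81, 5.59 and 10.4 FPKM in 3-month WT and 7.56, 7.61 and 10.1 in 3-month KO. At the later age the libraries gave 11.0, 12.9 and 24.8 FPKM for WT and 14.2, 14.7 and 10.2 for KO. Each 6-month library was above each 3-month library of its own genotype. At the closest the margin was small, with 11.0 against 10.4 FPKM in WT and 10.2 against 10.1 FPKM in KO. The age difference was 1.19 in WT (log2, SE 0.38, interval 0.35 to 2.03, unadjusted p 0.00941, adjusted p from limma 0.664). In KO it was 0.57 (interval -0.27 to 1.41). The genotypes overlapped at both ages, with differences of 0.39 (interval -0.45 to 1.23) at 3 months and -0.23 (interval -1.07 to 0.61) at 6 months. The latter was 0.26 without the 3 marker-high libraries.

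Gata4 (chromosome 14, 63198922 to 63271692, minus strand), a partner of NR5A1 on steroidogenic promoters, read 11.2, 17.1 and 19.0 FPKM in 3-month WT and 14.1, 27.6 and 24.8 in 3-month KO. The 6-month values were 21.9, 16.0 and 7.73 FPKM for WT and 6.85, 21.6 and 22.4 for KO. All groups overlapped, and the KO minus WT difference was 0.45 (interval -0.62 to 1.51) at 3 months and 0.10 (interval -0.96 to 1.16) at 6 months. The latter was -0.57 without the 3 marker-high libraries. Its lowest libraries, 6-month KO 1 and 6-month WT 3, were also the 2 lowest for Nr5a1.

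Gata6 (chromosome 18, 11052064 to 11085635, plus strand), which shares much of the role of Gata4 in granulosa cells, read 2.19, 9.30 and 13.1 FPKM in 3-month WT and 6.67, 9.14 and 14.0 in 3-month KO. The 6-month libraries held 13.4, 13.4 and 14.0 FPKM for WT and 11.8, 9.81 and 10.8 for KO. The 6-month groups were tight and did not overlap, with WT above KO (13.6 ± 0.343 against 10.8 ± 0.994 FPKM, SD, n = 3), whereas the 3-month groups spread widely. The 6-month difference was -0.31 (log2, SE 0.47, interval -1.34 to 0.72, adjusted p from limma 1.0), in a fit whose spread is shared by all 4 groups. In WT each 6-month library was above each 3-month library, though narrowly at the closest (13.4 against 13.1 FPKM). That difference was 0.92 (interval -0.11 to 1.95), and ran from 0.28 to 1.35 as each library was left out in turn. The KO minus WT difference at 3 months was 0.44 (interval -0.59 to 1.47), and 0.19 without the 3 marker-high libraries. A clone-named transcript, 1010001N08Rik, overlaps Gata6 on the opposite strand by 93 bases of exon.

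Wt1 (chromosome 2, 105126529 to 105173616, plus strand) read 0.572, 6.22 and 3.04 FPKM in 3-month WT and 1.94, 0.933 and 17.1 in 3-month KO. In the older mice the values were 10.3, 1.94 and 2.71 FPKM for WT and 0.672, 0.140 and 16.3 for KO. The 2 highest values were those of KO library 3 at either age, which are the libraries high in theca and stromal markers. Next came 6-month WT library 1, which had the highest surface epithelium score (2.02 on the same log2 scale). Krt7 read 14.4 and Upk1b 17.6 FPKM there. The next highest score was that of 6-month WT library 3 (1.54, with Upk1b at 18.8 FPKM), but its Wt1 was only 2.71 FPKM. The part of other cell types in these Wt1 values was not tested. The KO minus WT difference was 0.39 (interval -1.96 to 2.73) at 3 months and -0.58 without the 3 marker-high libraries. At 6 months it was -0.64 (interval -2.98 to 1.71), and -2.06 without those libraries (SE 0.78, unadjusted p 0.0257, adjusted p from limma 1.0). Averaged over the ages it was -0.12 with all libraries and -1.32 without those (SE 0.53, unadjusted p 0.0323, adjusted p from limma 0.749). Without the marker-high libraries the 6-month groups held libraries 1 and 2 only, among them WT library 1 with its 10.3 FPKM of Wt1.

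Runx1 (chromosome 16, 92601466 to 92826149, minus strand) read 5.03, 11.9 and 3.79 FPKM in 3-month WT and 2.92, 7.83 and 2.26 in 3-month KO. At the later age the libraries gave 5.07, 5.53 and 3.18 FPKM for WT and 5.08, 5.40 and 3.35 for KO. Its KO minus WT difference at 6 months was the smallest of the 10, at 0.01 (interval -0.99 to 1.01), against -0.57 (interval -1.58 to 0.43) at 3 months. These were -0.0124 and -0.29 without the 3 marker-high libraries. Library 3 was the lowest of its group for Runx1 in all 4 groups.

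Runx2 (chromosome 17, 44495987 to 44814797, minus strand) showed the opposite order. It read 0.390, 0.468 and 0.989 FPKM in 3-month WT, 0.632, 0 and 3.25 in 3-month KO, 0.217, 0.265 and 5.76 in 6-month WT, and 0.0697, 0.0311 and 4.65 in 6-month KO. Library 3 was the highest of its group in each, and only the 3 marker-high libraries reached 1 FPKM. Its mean therefore rested on them, and its KO minus WT differences were 0.26 (interval -1.49 to 2.00) at 3 months and -0.25 (interval -1.99 to 1.50) at 6 months. Without those libraries the 3-month difference was -0.32. Both RUNX genes have antisense transcripts that share exon bases with them (106 for Runx1 and 519 for Runx2), and those transcripts were not analysed here.

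Foxo1 (chromosome 3, 52268336 to 52353221, plus strand), the main FOXO gene of granulosa cells, read 44.2, 38.3 and 75.3 FPKM in 3-month WT and 78.7, 57.2 and 22.9 in 3-month KO. The 6-month values were 68.8, 70.1 and 69.9 FPKM for WT and 75.4, 91.0 and 17.8 for KO. The 2 lowest libraries were KO library 3 at either age, the reverse of Wt1. These were also the libraries lowest in Fst, Hsd17b1, Nap1l5 and Npr2, though not in Amh, Amhr2 or Kitl. With them the KO minus WT difference was -0.10 (interval -1.35 to 1.16) at 3 months and -0.47 (interval -1.73 to 0.78) at 6 months. Without the 3 marker-high libraries both were above 0, at 0.41 and 0.25. An antisense transcript, Gm20402, shares 674 exon bases with Foxo1 and had no row in the expression table.

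Foxo3 (chromosome 10, 42181841 to 42276755, minus strand) was low, at 0.638, 1.39 and 0.823 FPKM in 3-month WT and 1.89, 2.03 and 1.45 in 3-month KO. The 6-month libraries held 0.973, 0.688 and 0.549 FPKM for WT and 1.43, 0.754 and 0.0274 for KO. The 3-month KO libraries were the 3 highest of the 12. They lay above each 3-month WT library and, narrowly (1.45 against 1.43 FPKM), above each 6-month KO library. The difference from WT at 3 months was 0.53 (log2, SE 0.35, interval -0.23 to 1.29) and the 6 minus 3 month difference in KO was -0.76 (SE 0.35, interval -1.52 to -0.0045, unadjusted p 0.0489, adjusted p from limma 0.745). Low FPKM values rest on few reads, and the pseudocount of 1 understates changes of genes as low as Foxo3 and Runx2.

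**Figure D3:**
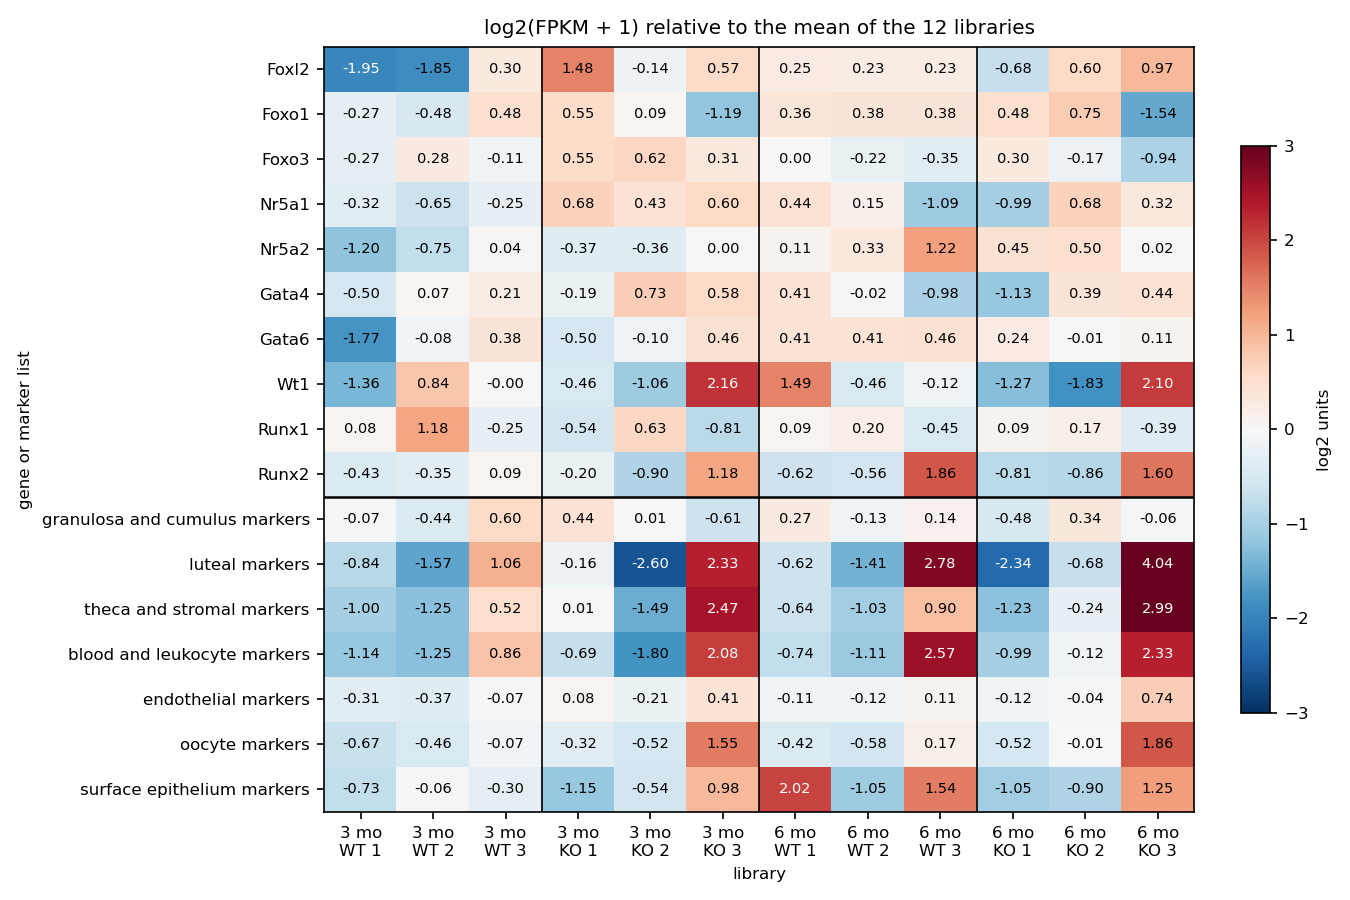
Heat map of log2(FPKM + 1) relative to the mean of the 12 libraries, with the 10 genes and the cell type marker lists as rows and the libraries as columns. KO library 3 at 3 and at 6 months stands out with low Foxo1 (22.9 and 17.8 FPKM), high Wt1 and Runx2, and high theca and stromal markers.

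Set against all 11196 tested genes, the member list held no called gene in any comparison. For KO against WT at 3 months, 0 of 10 members had an adjusted p from limma under 0.05 (0.00893% of all genes, 1 gene, Clpp), and 1 member, Foxl2, had an unadjusted p under 0.05 (6.8% of all genes). Nr5a1 and Foxo3 had groups that did not overlap, 2 of 10 against 10.2% of all genes. Differences were above 0 for 8 of 10 members, with a median of 0.42 against 0.01 over all genes. Without the 3 marker-high libraries they were above 0 for 7, with a median of 0.31, and without 3-month WT library 1 for 6, with a median of 0.13.

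At 6 months 0 of 10 members were called (0.0268% of all genes), 0 had an unadjusted p under 0.05 (1.22%), and 1, Gata6, had groups that did not overlap (6.8%). Differences were above 0 for 4 of 10 members, with a median of -0.15. Without the 3 marker-high libraries they were above 0 for 3, with a median of -0.26, and 1 member, Wt1, had an unadjusted p under 0.05, as had 108 of the 11196 genes. Averaged over the ages, 0 members were called (0.0179% of all genes) and 0 had an unadjusted p under 0.05 (5.96%), against 1 member, Wt1, and 716 genes without those libraries. For the difference of the KO effect between ages, 0 were called (0.00893%) and 0 had an unadjusted p under 0.05 (2.0%). That difference was below 0 for 9 of 10 members, Runx1 being the exception, with a median of -0.61, and for 8 without those libraries, with a median of -0.46. It shares its libraries with the comparisons above and is no separate evidence.

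With age in WT mice, 0 of 10 members were called (0.00893% of all genes), and Foxl2 and Nr5a2 had an unadjusted p under 0.05 (7.44% of all genes). Nr5a2 and Gata6 had groups that did not overlap (15.7% of all genes), both higher at 6 months. In KO mice 0 of 10 were called (0.0179%), and Foxo3 had an unadjusted p under 0.05 (6.48%). Nr5a2, higher at 6 months, and Foxo3, lower, had groups that did not overlap (12.8%). The age comparison in WT and the 3-month genotype comparison share the 3-month WT libraries. For KO against WT, the 95% interval reached beyond 1 log2 unit in at least 1 direction for 10 of 10 members at 3 months and for 9 at 6 months, Foxo3 being the exception. Differences of that size were therefore neither shown nor excluded for these members with 3 mice a group. The mean of Foxo3 in 6-month WT was 0.737 FPKM, so with the pseudocount of 1 even its complete loss is under 1 log2 unit. Its narrower interval (-0.84 to 0.68) therefore does not exclude a loss.

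**Figure D4:**
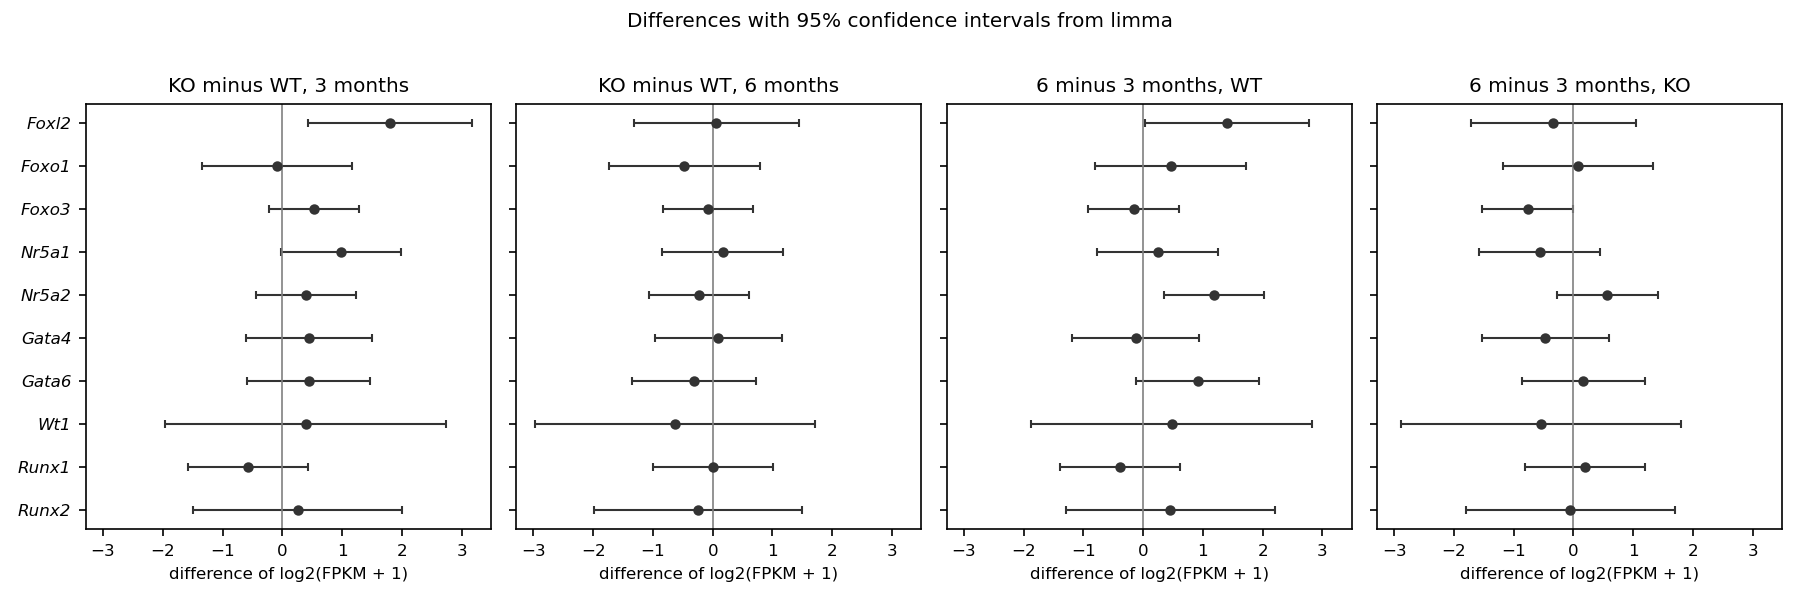
Differences of log2(FPKM + 1) with 95% confidence intervals from limma for the 10 genes (rows) in the comparisons of genotype and age (panels). The interval of Foxl2 at 3 months (0.43 to 3.18) lies above 0 before adjustment, and those of Wt1 and Runx2 are the widest.

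Because paralogs bind the same sequence, their ratio within a library was compared. It depends little on the library's scaling, through the 1 FPKM added to each gene, but more on that pseudocount where a gene is low. Genotype labels were permuted within age, or age labels within genotype, in an exact 2-sided permutation test with 400 arrangements (smallest possible p 0.005), adjusted over 8 tests. The test makes no use of library numbers. Foxo1 exceeded Foxo3 in all 12 libraries, by a log2 ratio of 4.74 ± 0.676 (SD, n = 3) in 3-month WT, 4.11 ± 0.759 in 3-month KO, 5.35 ± 0.189 in 6-month WT and 4.96 ± 0.761 in 6-month KO. The KO minus WT difference of that ratio was -0.51 (exact permutation p 0.2, adjusted 0.4), and -0.07 without the 3 marker-high libraries. The 6 minus 3 month difference was 0.73 (exact permutation p 0.07, adjusted 0.227). After rescaling by size factors it was 0.7241, and with a pseudocount of 0.1 it was 1.305 (exact permutation, adjusted p 0.12). Between libraries of equal number and genotype the ratio was higher at 6 months in 6 of 6 pairs, though it is uncertain that the numbers pair the mice.

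Nr5a1 exceeded Nr5a2 in all 6 of the 3-month libraries and in 4 of the 6-month libraries. Their log2 ratio was 0.83 ± 0.600 in 3-month WT, 1.42 ± 0.227 in 3-month KO, -0.12 ± 1.41 in 6-month WT and 0.28 ± 0.971 in 6-month KO (SD, n = 3). The 6 minus 3 month difference was -1.04 (exact permutation p 0.05, adjusted 0.227) and the KO minus WT difference 0.49 (p 0.365 by exact permutation, adjusted 0.584), the latter being -0.00731 without the 3 marker-high libraries. Between libraries of equal number and genotype, a pairing that is uncertain, the ratio was lower at 6 months in 6 of 6 pairs. It was lower in 5 of 6 for Gata4 over Gata6 and in 3 of 6 for Runx1 over Runx2. These counts are descriptions and no test. Gata4 over Gata6 moved the same way with age, by -0.84 (exact permutation p 0.085, adjusted 0.227), with 6-month WT library 3 and 6-month KO library 1 the only libraries in which Gata6 was the higher. For Runx1 over Runx2 the differences were -0.29 by genotype and -0.30 by age (exact permutation p 0.77 and 0.745), and 0.13 and 0.27 without the 3 marker-high libraries. No paralog ratio passed the test.

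**Figure D5:**
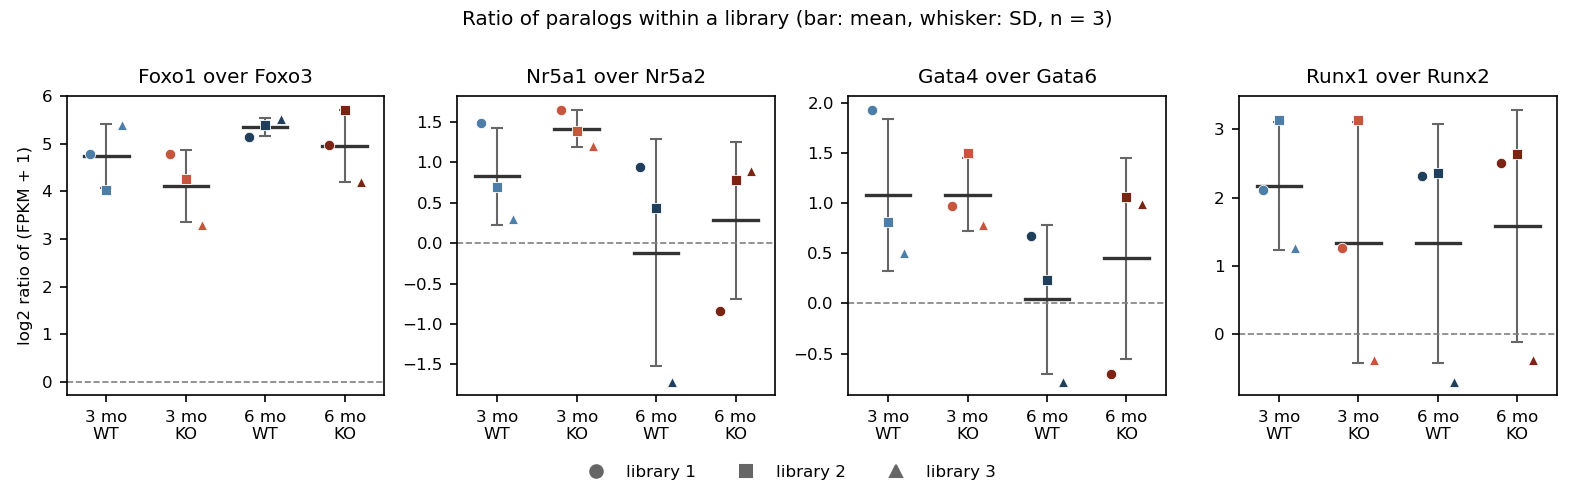
Log2 ratio of (FPKM + 1) of paired genes within each library (vertical axis) for the 4 groups, with the mean and SD (n = 3) and a dashed line where both genes are equal. Foxo1 over Foxo3 lies above 0 in all libraries, and Runx1 over Runx2 falls below 0 only in the 3 marker-high libraries.

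Genes downstream of these factors showed mixed directions. Of the 16 FOXL2, NR5A and GATA targets, 9 were higher and 7 lower in KO at 3 months, and 10 and 6 at 6 months, with 0 called (medians 0.26 and 0.13). Amhr2, the anti-Müllerian hormone receptor, read 28.5, 66.0 and 36.0 FPKM in 3-month WT and 63.4, 149 and 82.0 in 3-month KO, with groups that overlapped and a difference of 1.15 (SE 0.50, adjusted p from limma 0.73). Inha differed by 0.64 at 6 months (SE 0.34, adjusted p from limma 1.0). Cyp11a1, the side-chain cleavage enzyme that starts steroid synthesis, read 5942 and 7989 FPKM in KO library 3 at 3 and 6 months and 2.46 to 724 in the other 10 libraries.

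Of 20 FOXO targets and regulators, 9 were higher and 11 lower in KO at 3 months, 0 were called, and 7 had an unadjusted p under 0.05, as had 6.8% of all genes. Among the 3-month libraries Klf2, a FOXO-induced factor, stood at 13.4, 10.8 and 75.9 FPKM for WT, against 129, 95.9 and 91.1 for KO. Fbxo32, a classical FOXO target that encodes an E3 ligase subunit, stood at 22.0, 18.3 and 1.92 FPKM for WT, against 1.35, 0.551 and 1.62 for KO. Klf2 was low, and Fbxo32 and Sgk1 high, in 3-month WT libraries 1 and 2, the libraries low in Foxl2, while library 3 lay nearer to KO. Their differences were 2.16 for Klf2, -2.36 for Fbxo32 and -2.48 for Sgk1 (adjusted p from limma 0.664 for each). At 6 months 12 of the 20 were higher, 8 lower and 0 had an unadjusted p under 0.05.

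Among cofactors and repressors 8 of 16 tested were higher in KO at either age, and 0 were called. Cited2, a coactivator that works with WT1 in the early gonad, differed by -2.29 at 3 months (SE 0.87, adjusted p from limma 0.69), with 305 FPKM in 3-month WT library 1. Zfpm2, the GATA cofactor FOG2, differed by -0.64 at 3 months and Cbfb, the shared RUNX partner, by -0.44 at 6 months, and neither passed. Of 12 relatives of the same DNA-binding classes 4 could be tested, and Runx3 and Gata5 were listed at 0 in all 12 libraries. Dmrt1, the testis-fate factor that FOXL2 opposes, was also listed at 0 in all 12, and Sox9 read at most 1.53 FPKM. Of 10 other ovarian factors tested, Cebpb, an ovulatory mediator, differed by -0.78 at 3 months and by 1.22 at 6 months (adjusted p from limma 0.768 and 1.0).

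Over the 12 libraries the members did not move as a block. The highest correlations of log2(FPKM + 1) among member pairs were those of Nr5a1 with Gata4 (Pearson r 0.79) and of Nr5a2 with Gata6 (r 0.75), and the lowest was that of Wt1 with Foxo1 (r -0.72). By ranks (Spearman rho) the highest was that of Foxl2 with Nr5a1 (0.69) and the lowest that of Runx1 with Runx2 (-0.73), so these extremes depend on the measure. Among 10041 protein-coding genes compared with each member, the closest to Foxl2 was Cdk20 (r 0.91), that to Nr5a1 Tmub1 (0.86), that to Gata4 Marcksl1 (0.85) and that to Foxo3 Bysl (0.95). Nr5a2 lay closest to Arhgap10 (0.89), Gata6 to Unc13b (0.91, but rho 0.57) and Runx1 to Ube3c (0.91). The remaining members took extreme values in marker-high libraries. Runx2 reached 1 FPKM only in them. Wt1 was highest (17.1 and 16.3 FPKM) and Foxo1 lowest (22.9 and 17.8 FPKM) in KO library 3 at 3 and 6 months. The closest gene was Klhl31 for Wt1 (r 0.95), Ssu2 for Runx2 (0.98) and Lsm2 for Foxo1 (0.98). These are descriptions over 12 points that share libraries, groups and other-cell markers, picked as the highest of many, and they carry no test.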

How the data were processed

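RNA-seq covered 12 mouse cumulus cell libraries, 4 groups of 3 mice, sequenced as 75 bp read pairs. The authors deposited FPKM values per gene. Per the submitters' processing notes the reads were handled with cutadapt and FastQC; the notes also name TopHat2 (version 2.0.10) and its aligner Bowtie2 (2.1.0), the utilities of SAMtools (0.1.18), the quantifier Cufflinks (1.2.1) and the GRCm38/mm10 build. The gene annotation was not given in the sources used here. Counts are not part of the table, so the depth of each library is unknown. The spacing of values under 0.2 FPKM put relative depth at 0.642 to 1.0, and FPKM sums per library ran from 627194 to 1366495, or from 624241 to 880518 without small RNA entries.

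Groups came from the labels. Genes with at least 1 FPKM in at least 3 libraries (11196) were fitted as log2(FPKM + 1), a pseudocount of 1, with limma 3.58.1 in R 4.3.3, using 4 group means over all libraries (8 residual and 3.9 prior degrees of freedom, eBayes with trend). P-values are 2-sided, adjusted by Benjamini and Hochberg over all tested genes, with a threshold of 0.05. They measure the spread between libraries of separate mice. The fit was tested on simulated data. Exact permutation tests served the paralog ratios. The rest was done in Python (3.11.15), using pandas (2.3.3), numpy (2.4.6) and, for figures, matplotlib (3.10.9). Coordinates are from GENCODE M21 on GRCm38, and promoter sequences from RefSeq on GRCm38.p6.

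The members and lists were chosen with earlier results of these data known. The rule for named genes took all members, Clpp, up to 3 genes of each list by smallest unadjusted p in the genotype comparison at each age, and the protein-coding genes most correlated with each member. Values of a few further genes of the lists are given as descriptions, and Tnfaip6 and Has2 were added after their values were seen. Alternatives were a pseudocount of 0.1, no filter, rescaling by size factors, fits of only the libraries compared, a replicate block, leaving out each library, and leaving out the 3 libraries high in markers of other cells.

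Libraries carry the numbers 1 to 3 within a group, and no label says what a number stands for. As a check of pairing, each library was centred on its group mean and libraries with equal numbers were correlated across genes. For the genotypes at 6 months r was 0.158, 0.373 and 0.465, and for the ages in KO 0.114, 0.394 and 0.653, all over 0.1, which counts as pairing by the rule used, with no source but the data. For the genotypes at 3 months r was 0.0946, -0.0185 and 0.205, and for the ages in WT 0.0319, 0.0303 and 0.278. Unequal numbers also correlated. At 6 months r was 0.475 for WT library 2 with KO library 1. For the ages in KO it was 0.514 for 3-month library 2 with 6-month library 1. In both comparisons library 3 of one group correlated below 0 with libraries 1 and 2 of the other. Library 3 of several groups is high in markers of other cells, so this pairing is uncertain.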

Additional observations from a re-analysis of the deposited data

How the results depend on the processing

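No member was called in any of the 880 member fits over all settings, comparisons and left-out libraries. With the replicate block 0 members were called in each comparison, and the genes called numbered 1, 3, 2, 1, 1 and 2 as without it; it changed no call. Genes called for KO against WT at 3 months fell from 1 to 0 with a pseudocount of 0.1 and to 0 with no filter. With no filter they fell from 2 to 1 for the average over ages and from 1 to 0 for the interaction, and with only the libraries compared they rose from 1 to 2 for age in WT and from 2 to 4 for age in KO; the cause was not tested. Of the member differences under these settings 321 kept their sign and 19 turned, and with a library left out 415 kept it and 65 turned.

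Without the 3 marker-high libraries, differences turned to -0.58 (Wt1), -0.32 (Runx2) and 0.41 (Foxo1) at 3 months. At 6 months they turned to -0.28 (Foxl2), -0.45 (Nr5a1), 0.26 (Nr5a2), -0.57 (Gata4), -0.0124 (Runx1), 0.25 (Foxo1) and 0.18 (Foxo3). Averaged over ages they turned to -0.11 (Gata4), -0.0528 (Gata6), -0.28 (Runx2) and 0.33 (Foxo1), in the interaction to 0.0799 (Runx2), and for age in WT to 0.27 (Gata4) and -0.36 (Runx2). KO minus WT ratios turned to -0.00731 (Nr5a1 over Nr5a2), -0.0596 (Gata4 over Gata6) and 0.13 (Runx1 over Runx2), and the age difference of the last to 0.27. With a pseudocount of 0.1, Runx2 turned to -0.10 at 3 months and -0.50 on average, and the Runx ratio to 0.16 by genotype.

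Leaving out each library in turn, genes called ranged from 0 to 10 at 3 months, 1 to 6 on average, 0 to 4 for the interaction and 1 to 10 for age in WT, with the highest counts without 3-month WT library 3. Member differences that turned ranged at 3 months from -0.20 to 0.88 (Gata6), -0.58 to 1.03 (Wt1), -0.32 to 0.72 (Runx2) and -0.46 to 0.41 (Foxo1). At 6 months the ranges were -0.27 to 0.55 (Foxl2), -0.30 to 0.66 (Nr5a1), -0.45 to 0.11 (Nr5a2), -0.30 to 0.61 (Gata4), -1.85 to 0.11 (Wt1), -0.19 to 0.18 (Runx1), -1.06 to 0.57 (Runx2), -0.90 to 0.25 (Foxo1) and -0.36 to 0.26 (Foxo3). On average they were -0.0599 to 0.25 (Nr5a2), -0.26 to 0.28 (Gata6), -0.73 to 0.25 (Wt1), -0.40 to 0.41 (Runx2) and -0.50 to 0.076 (Foxo1), and in the interaction -0.74 to 0.17 (Gata4), -1.31 to 0.31 (Runx2) and -0.88 to 0.34 (Foxo1). For age in WT they were -0.0601 to 0.71 (Nr5a1), -0.43 to 0.27 (Gata4), -0.12 to 0.98 (Wt1), -0.68 to 0.0315 (Runx1) and -0.36 to 0.87 (Runx2). For age in KO they were -0.73 to 0.15 (Foxl2), -0.76 to 0.0436 (Gata4), -0.0658 to 0.42 (Gata6), -1.76 to 0.43 (Wt1), -0.0885 to 0.63 (Runx1), -0.86 to 0.53 (Runx2) and -0.42 to 0.80 (Foxo1). The Runx1 over Runx2 ratio ranged from -0.79 to 0.20 by genotype and -0.73 to 0.21 by age. Without counts, no error can be given for a single low FPKM value.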
